A study of Mus musculus with 15 samples.

Results

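MiRNA expression was compared between mouse liver allografts removed 14 days and 8 days after transplantation. The comparison took the 6 arrays whose labels name an allogeneic liver on day 14 (3 arrays) or on day 8 (3 arrays), of the 15 arrays measured, and all mouse miRNAs on them. In both groups the livers of B10.BR (H2-Kk) donors were transplanted into B10.D2 (H2-Kd) recipients, male mice, without immunosuppressive drugs, and the groups differed in the day of removal. The other 9 arrays came from allografts on days 5 and 100 and from syngeneic grafts on day 5, with 3 in each group. The labels tie 3 sacrificed mice to each group, so 1 array was taken as 1 graft. A graft is donor liver infiltrated by cells of the recipient, and total RNA of the whole tissue was labeled. A lower signal of a cell type's miRNA can therefore not be told apart between fewer cells of that type and less of the miRNA in each cell.

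MiRNAs are short RNAs that guide silencing complexes to messenger RNAs, chiefly by pairing of the seed, the bases near the 5′ end. Hepatocytes express miR-122 as their dominant miRNA, and miR-192 and miR-194 are transcribed together and are abundant in liver and gut. MiR-142 and miR-223 mark hematopoietic and myeloid cells, whereas miR-144 and miR-451 are processed from a single transcript of the erythroid lineage. In this transplantation model the graft goes through a phase of rejection before it is accepted, and the comparison asks how the miRNAs of the graft differ between an earlier and a later day of that course.

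The sequences of the miRNAs that carry the comparison are shown first, as RefSeq gives them for the GRCm38.p6 assembly, 5′ to 3′, with the seed (bases 2 to 8) in capitals. Of the 103 tested miRNAs, 90 were matched to a RefSeq mature sequence by name and kept after a filter on chromosome. The called miR-122 is not among these 90, so its sequence is not printed. The other miRNAs called lower on day 14, with the other members of the miR-101 and miR-26 pairs, are the following.
miR-365: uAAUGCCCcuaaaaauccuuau
miR-101b: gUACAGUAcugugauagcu
miR-101a: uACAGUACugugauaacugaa
miR-26b: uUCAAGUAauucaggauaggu
miR-26a: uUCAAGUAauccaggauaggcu
miR-194: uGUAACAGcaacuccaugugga
miR-192: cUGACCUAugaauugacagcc
The let-7 members with the lowest and the highest difference, which share their seed, and the leukocyte and erythroid miRNAs with the highest differences are the following.
let-7f: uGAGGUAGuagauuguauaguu
let-7i: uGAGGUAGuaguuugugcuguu
miR-142-5p: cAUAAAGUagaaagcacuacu
miR-142-3p: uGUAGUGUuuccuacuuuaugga
miR-342-3p: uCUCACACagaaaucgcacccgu
miR-144: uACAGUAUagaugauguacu
The miR-194-2 copy lies at chr19:6264658-6264679 on the plus strand, and miR-192 follows it at chr19:6264857-6264877, with 177 bases between them. MiR-194 has another copy at chr1:185313325-185313346. MiR-101b lies at chr19:29135338-29135356 and miR-26b at chr1:74394324-74394344. MiR-365 has copies at chr11:79726467-79726488 and chr16:13453895-13453916, and their mature sequences cannot be told apart by the array. MiR-144 at chr11:78073047-78073066 is followed by miR-451 after 119 bases. Bases 2 to 8 of miR-101b are the letters uacagua, which are also bases 1 to 7 of miR-144 and of miR-101a.

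All 6 arrays lay on a single slide, together with 2 of the syngeneic arrays. On that slide the day 8 and the day 14 arrays took neighboring positions in blocks, so the position on the slide cannot be told apart from the day. Levels are given as the log2 scaled signal, that is, the signal of a miRNA summed over its probes and scaled to the 75th percentile of the 52 miRNAs found on every array, on the log2 scale. Of 567 mouse miRNAs on the array, 99 to 102 were detected per day 8 array and 98 to 115 per day 14 array. To be tested, a miRNA had to be detected on every array of 1 or more of the 5 groups, which held for 103, and 93 of them were detected on all 6 arrays compared. Across the tested miRNAs the median SD between the 3 arrays was 0.10 on day 8 and 0.20 on day 14. The precision is limited by the number of arrays, 3 a day, and an exact permutation test of 3 against 3 arrays could not have gone below a p of 0.10.

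Between day 8 and day 14, 6 of the 103 miRNAs were called (5.83%) by limma at an adjusted p under 0.05, and all 6 were lower on day 14 (5.83% called lower). They were the hepatocyte miRNAs miR-122, miR-192 and miR-194, together with miR-365, miR-101b and miR-26b. The falls were 1.41-fold to 1.73-fold. None was called higher (0%), although 9 miRNAs were higher (8.74%) and 13 lower (12.6%) at an unadjusted p under 0.05. The methods' t-test with Benjamini-Hochberg adjustment called 2 higher (1.94%) and 8 lower (7.77%), and only 2 of its 10 calls were among the 6 named above. The 3 arrays of a day did not overlap with those of the other day for 48 miRNAs (46.6%), which were lower on day 14 for 28 (27.2%) and higher for 20 (19.4%). Over all tested miRNAs the log2 fold changes ran from -0.79 to 1.58 with a median of -0.07, 46 above 0 and 56 below, and their median SE was 0.24.

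**Figure D1:**
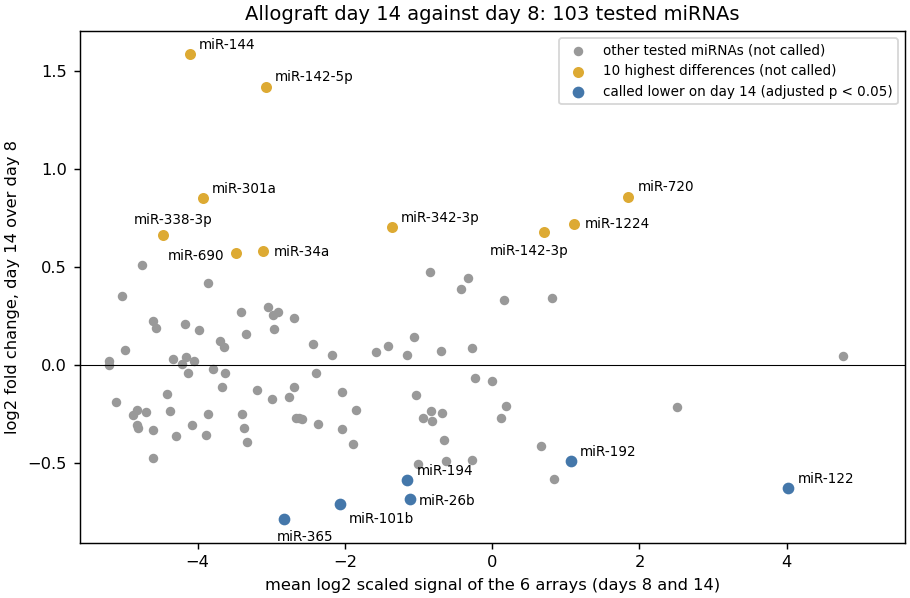
Log2 fold change of day 14 over day 8 for the 103 tested miRNAs (y axis) against the mean log2 scaled signal of the 6 arrays (x axis), each point a miRNA. The 6 miRNAs called lower (blue) lie between -0.79 and -0.49, and the 10 highest differences (yellow, none called) lie between 0.57 and 1.58.

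The 6 calls shared the same adjusted p of 0.047 (limma), close under the threshold. When arrays of the compared days were left out in turn, none was called without any of the 3 day 8 arrays or without replicate 1 or 3 of day 14, and 5 were called without replicate 2 of day 14. Without single arrays of the other groups, which enter the estimate of the spread, 0 to 10 were called. A fit on the 8 arrays of the slide that holds both days called 5, with miR-144 and miR-342-3p higher and miR-26b, miR-122 and miR-194 lower. A fit on only the 6 arrays compared called 19, with 9 higher (8.74%) and 10 lower (9.71%), and 5 of the 6 main calls were among them. Under other scalings the split of calls changed. The 75th percentile over all mouse miRNAs gave no call. Quantile normalization gave 1 higher and 4 lower, and the 75th percentile over the miRNAs detected on the 6 arrays gave 3 higher and 4 lower. Each of these scalings kept 3 of the 6 main calls. The median of the miRNAs detected on all arrays gave 6 higher and 2 lower and kept 2 of the main calls. The arrays with no scaling gave 2 higher and 0 lower and kept 0. The median log2 fold change of all tested miRNAs moved with the scaling, from -0.07 to 0.14, so that single differences are read relative to that median. Relative to it, 5 of the called miRNAs stayed below 0 under all 6 scalings, and miR-122 did so in all but the quantile normalization.

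Detected on all 6 arrays, the hepatocyte miRNAs miR-122, miR-192 and miR-194 fell together. MiR-122 read 4.39, 4.37 and 4.25 on the 3 day 8 arrays and 3.45, 3.81 and 3.86 on the 3 day 14 arrays. Every day 14 array was below every day 8 array, and the lowest was replicate 1. The fall was 1.55-fold (log2 fold change -0.63, SE 0.15, adjusted p = 0.047 by limma). MiR-122 took 20.002% to 22.8% of the summed mouse miRNA signal of an array on day 8 and 12.8% to 17.5% on day 14. Under quantile normalization its difference was 0, since it held the same rank on the 6 arrays and that method gives equal ranks equal values. MiR-192, which is co-transcribed with a copy of miR-194, read 1.27, 1.31 and 1.36 on day 8 and 0.66, 1.02 and 0.78 on day 14. MiR-194 itself read -0.74, -0.96 and -0.87 on day 8 and -1.59, -1.35 and -1.40 on day 14. The days did not overlap for either miRNA, and the falls were 1.41-fold for miR-192 (log2 fold change -0.49, SE 0.13) and 1.502-fold for miR-194 (-0.59, SE 0.14).

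Of the 6 miRNAs of the hepatocyte list, 5 were tested and miR-215 was detected on none of the 6 arrays. Against 5.83% of all tested miRNAs, 3 of the 5 were called lower. This count held for the main scaling alone, since 1 was called lower with quantile normalization or the percentile over the 6 arrays, and 0 with the other 3 scalings. MiR-148a, an abundant liver miRNA that inhibits DNA methyltransferases, had a log2 fold change of -0.38 (SE 0.16, adjusted p = 0.20 by limma) with arrays that did not overlap. MiR-193 had 0.06 (SE 0.29) with arrays that did. The median of the 5 was -0.49, beside -0.07 for all tested miRNAs. Together the 6 miRNAs of the list, miR-215 included, took 24.3% to 27.1% of the summed signal on day 8. On day 14 they took 15.97% to 21.0%, and these ranges did not overlap. Most of the list's share on both days was miR-122, whose own shares are given above.

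MiR-365, miR-101b and miR-26b made up the rest of the calls. MiR-365, a miRNA known from brown fat differentiation and from interleukin-6 regulation, had the largest fall, with -2.38, -2.37 and -2.56 on day 8 and -3.26, -3.19 and -3.22 on day 14. This was a 1.73-fold fall (log2 fold change -0.79, SE 0.21), and the SD of the 3 day 14 arrays was 0.04. MiR-101b, whose family targets the histone methyltransferase Ezh2, read -1.62, -1.88 and -1.64 on day 8 and -2.75, -1.97 and -2.55 on day 14. The days did not overlap, but replicate 2 of day 14 stood close to replicate 2 of day 8. The fall was 1.63-fold (log2 fold change -0.71, SE 0.19). MiR-101a shares a run of 9 bases with miR-101b within the first 10 bases of each, and the printed sequences go on matching beyond it. It read -2.38, -2.57 and -2.36 on day 8 and -3.03, -2.30 and -2.81 on day 14. Its days overlapped (log2 fold change -0.28, SE 0.22, adjusted p = 0.56). In both miR-101 members, replicate 2 was the highest of the day 14 arrays.

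MiR-26b, whose family also lowers Ezh2 and is held to be a brake on liver growth, read -0.75, -0.79 and -0.77 on day 8 and -1.42, -1.25 and -1.70 on day 14. The fall was 1.61-fold (log2 fold change -0.68, SE 0.18) with no overlap of the days. MiR-26a shares the first 10 bases with it and read -0.66, -0.70 and -0.78 on day 8 and -0.92, -0.98 and -0.95 on day 14. Its days were also apart, with a log2 fold change of -0.24 (SE 0.16, adjusted p = 0.46). A difference between the miR-26 members, or between the miR-101 members, was not tested.

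**Figure D2:**
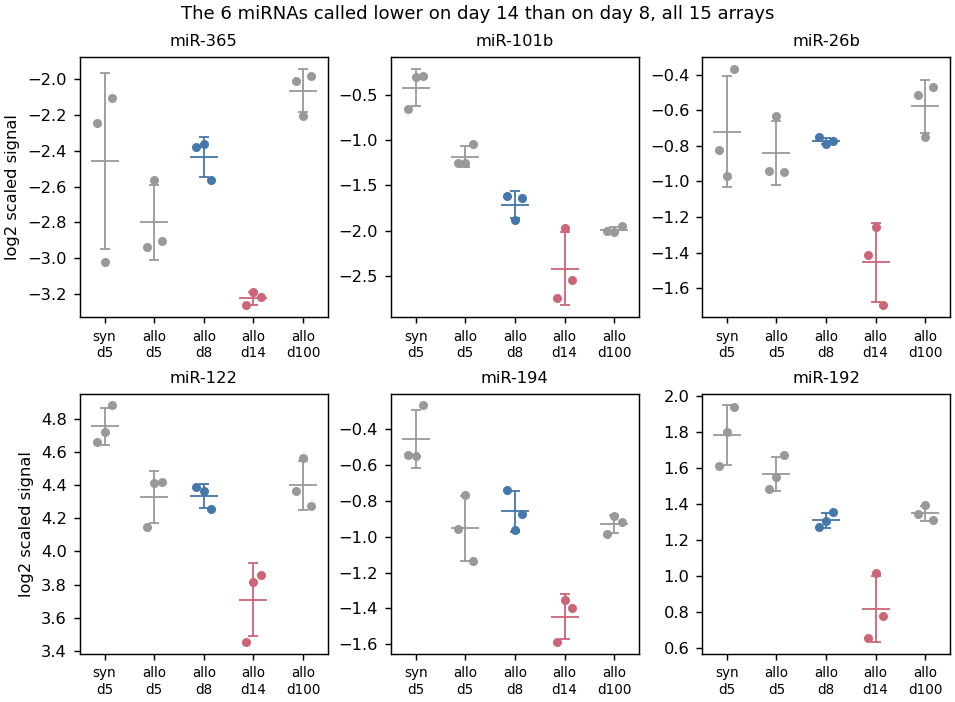
Log2 scaled signal (y axis, its own range in each panel) of the 6 miRNAs called lower on day 14 than on day 8, in the 5 groups of 3 arrays (x axis: syngeneic day 5, allograft days 5, 8, 14 and 100). Points are arrays, and bars give the mean ± SD. For 5 of the 6 all day 14 points lie below those of the 12 other arrays, and for miR-101b they overlap with day 100.

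Set against the remaining groups as a description, day 14 was the low point for most of the called miRNAs. For 5 of the 6, all but miR-101b, the 3 day 14 arrays lay below each of the 12 other arrays, as they did for 9 of the 103 tested miRNAs (8.74%). The 6 were called for being lower than on day 8, so their place below the day 8 arrays was partly fixed by that choice. The allografts of days 5 and 100 and replicate 3 of the syngeneic grafts lay on another slide, so slide and group cannot be told apart there. MiR-122 was 4.66 to 4.88 in the syngeneic grafts, 4.15 to 4.42 in the allografts on day 5 and 4.27 to 4.56 on day 100, as against 3.45 to 3.86 on day 14. MiR-365 was -3.02 to -2.10 in the syngeneic grafts, -2.93 to -2.56 in the allografts on day 5 and -2.20 to -1.98 on day 100, above the -3.26 to -3.19 of day 14. MiR-101b was -2.01 to -1.95 on day 100, which overlapped with its day 14 arrays (-2.75 to -1.97). The others with day 14 lowest were let-7f, let-7g, miR-148a and miR-22. In the other direction the day 14 arrays lay above all 12 others for 5 miRNAs (4.85%), which were miR-15a, miR-27a, miR-322, miR-342-3p and miR-652. The calls of day 14 against the other groups were not part of the comparison.

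No member of the let-7 family was called by limma over all 15 arrays, while 8 of its 9 tested members had values below 0. The let-7 miRNAs are abundant in differentiated tissue and target growth genes such as Lin28 and Ras. Let-7f read 1.16, 1.14 and 1.095 on day 8 and 0.59, 0.73 and 0.35 on day 14. Every day 14 array was below those of day 8, and the log2 fold change was -0.58 (SE 0.19, adjusted p = 0.091 by limma). Let-7b (-0.51), let-7c (-0.49) and let-7g (-0.48) had adjusted p of 0.20, 0.13 and 0.13, and completed the 10 lowest log2 fold changes of all tested miRNAs. The days did not overlap for 7 of the 9 members, all lower on day 14, against 27.2% of all tested miRNAs. Let-7i was the exception in sign, with -1.52, -1.50 and -1.37 on day 8 and -1.25, -1.28 and -1.56 on day 14. Its difference was 0.10 (SE 0.18), and its mature sequence differs from that of let-7f at 4 positions outside the seed. Family members with so close a sequence can share hybridization signal, so their values are not independent.

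The median over the 9 members was -0.42. The split of 8 below 0 and let-7i above held under all 6 scalings. At an unadjusted p under 0.05 there were 4 lower, against 12.6% of all tested miRNAs, and none higher. The methods' t-test with Benjamini-Hochberg adjustment called 3 lower, against 7.77%. The fit on only the 6 arrays compared called 4 lower, let-7a, let-7b, let-7c and let-7f, against 9.71%. Together the family took 7.61% to 8.50% of the summed signal on day 8 and 6.21% to 6.52% on day 14.

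**Figure D3:**
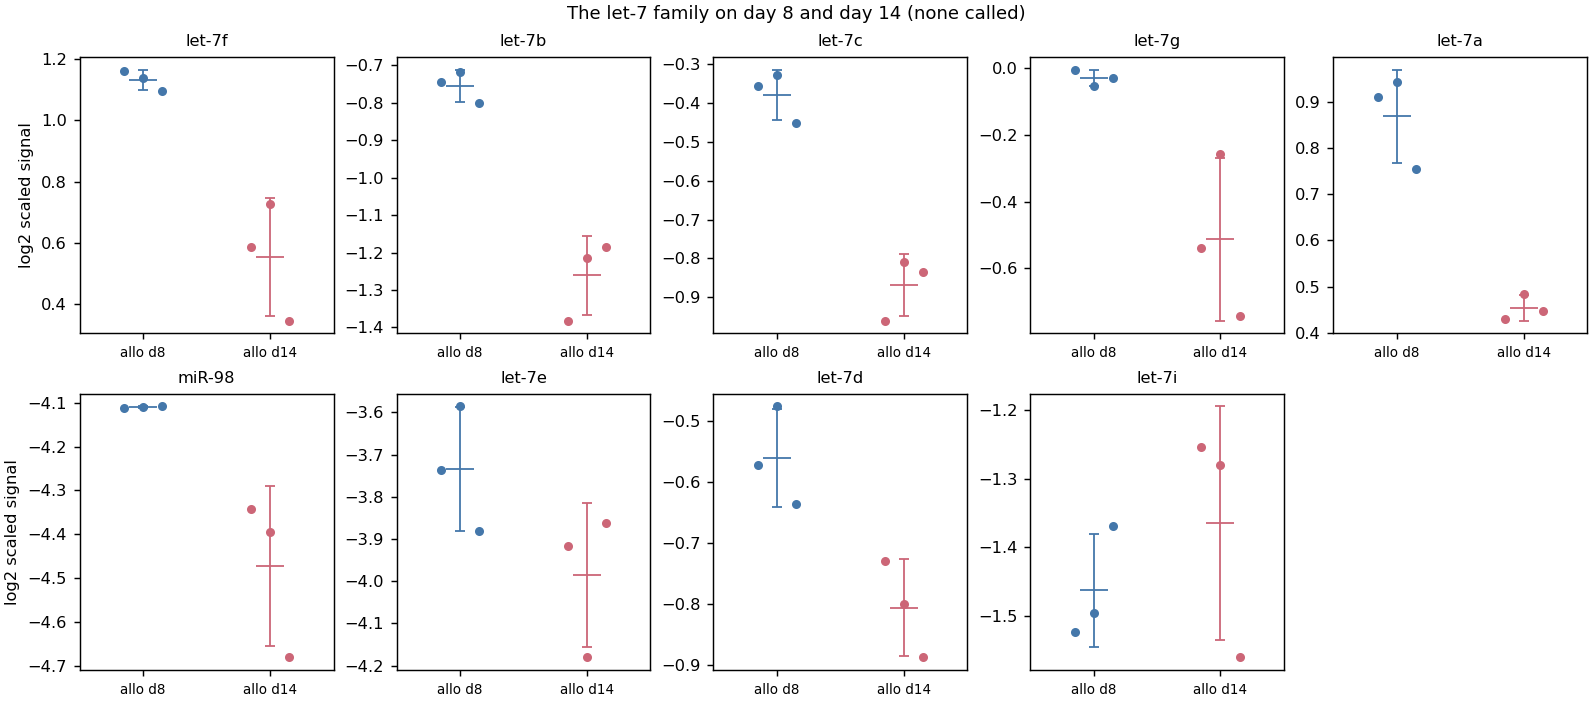
Log2 scaled signal (y axis, its own range in each panel) of the 9 tested let-7 family members on the 3 day 8 and the 3 day 14 allograft arrays (x axis). Points are arrays, and bars give the mean ± SD. The days do not overlap for 7 of the 9 members, and let-7e and let-7i overlap.

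Leukocyte miRNAs had values above 0 on day 14 without passing the test. Of the 9 on the list, 6 were tested and all 6 were above 0, with a median of 0.53. None was called by limma over all 15 arrays, and 2 were higher at an unadjusted p under 0.05, against 8.74% of all tested miRNAs. The methods' t-test with Benjamini-Hochberg adjustment called 1, against 1.94%, and the fit on only the 6 arrays called 2, miR-142-5p and miR-342-3p, against 8.74%. The days did not overlap for 4 of the 6, all higher on day 14, against 19.4% of all tested miRNAs. MiR-150, the defining miRNA of resting lymphocytes, was detected on no array of either day, whereas miR-146b and miR-181a were each detected on 0 of the day 8 and 2 of the day 14 arrays.

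MiR-142-5p, from a hairpin active in all hematopoietic cells, read -3.76, -3.86 and -3.72 on day 8 and -2.47, -2.28 and -2.33 on day 14. The gap between the days was larger than the SD within them (0.07 and 0.10), for a log2 fold change of 1.42 (SE 0.46). Its adjusted p was 0.091 in the limma fit over all 15 arrays and 0.000312 in a fit on only the 6 arrays compared. MiR-142-3p, from the other arm of that hairpin, read 0.35, 0.18 and 0.56 on day 8 and 1.05, 1.44 and 0.65 on day 14. Its day 14 arrays spread widely, and the log2 fold change was 0.68 (SE 0.43, adjusted p = 0.43).

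MiR-342-3p, which is expressed in lymphocytes and monocytes, read -1.80, -1.62 and -1.73 on day 8 and -0.78, -1.27 and -0.99 on day 14. The log2 fold change was 0.70 (SE 0.20, adjusted p = 0.063), with no overlap of the days. MiR-223, a myeloid miRNA, had 0.39 (SE 0.24, adjusted p = 0.43) and did not overlap either. MiR-155 and miR-146a, which are induced in activated immune cells, had 0.16 (SE 0.27) and 0.10 (SE 0.21). For both, replicate 1 of day 14 was the highest and replicate 3 the lowest of the 6 arrays. Together the 9 miRNAs of the leukocyte list, tested or not, took 2.74% to 3.02% of the summed signal on day 8. On day 14 they took 4.001% to 5.01%, ranges that did not overlap, while the share of the hepatocyte list was lower. The brightest tested leukocyte miRNAs were miR-142-3p and miR-223, and neither was called. The part of a shift in cell types in the falls above was not tested.

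**Figure D4:**
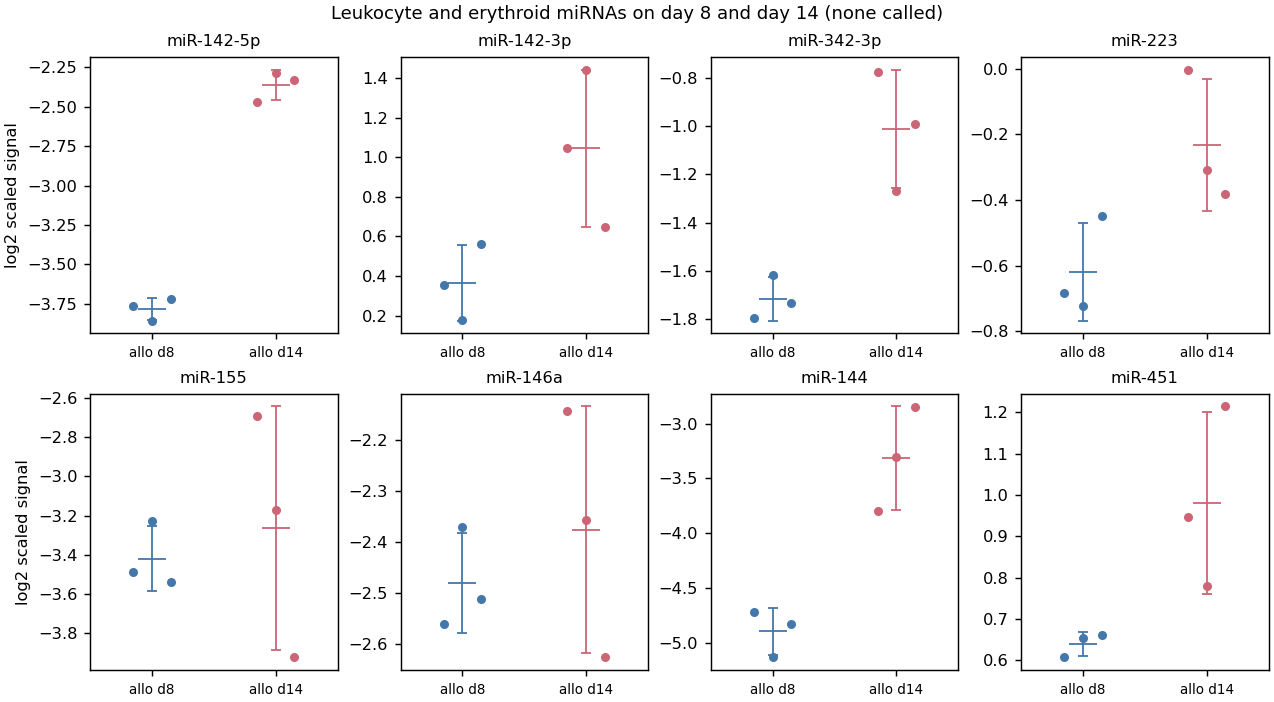
Log2 scaled signal (y axis, its own range in each panel) of 6 leukocyte miRNAs and of the erythroid miR-144 and miR-451 on the 3 day 8 and the 3 day 14 allograft arrays (x axis). Points are arrays, and bars give the mean ± SD. The days do not overlap for 6 of the 8, all higher on day 14, and none was called over all 15 arrays.

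The erythroid miRNAs held the highest value of the comparison. MiR-144 was not detected on any day 8 array and was detected on all 3 day 14 arrays, with -3.79, -3.30 and -2.85 there. Its day 8 signals of -4.72, -5.13 and -4.83 were not well above background. The estimated difference was 3.00-fold (log2 fold change 1.58, SE 0.47), and it rests on those dim day 8 signals. The difference was not called by limma over all 15 arrays (adjusted p = 0.067) and was called on only the 6 arrays (adjusted p = 0.016). MiR-451 from the same transcript read 0.61, 0.65 and 0.66 on day 8 and 0.95, 0.78 and 1.21 on day 14. Its log2 fold change was 0.34 (SE 0.34, adjusted p = 0.63) with no overlap of the days. MiR-486, the third erythroid miRNA, was detected on 0 of the day 8 and 1 of the day 14 arrays. Together with miR-486, miR-144 and miR-451 took 1.69% to 1.78% of the summed signal on day 8 and 1.89% to 2.99% on day 14. The miR-17* strand was the other miRNA detected on no day 8 array and on all day 14 arrays, with -4.73, -4.84 and -5.00 there (adjusted p = 0.097), close above the floor of -5.21 at which its day 8 arrays stood.

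The remaining highest log2 fold changes were those of miR-720 (0.86), miR-301a (0.85), miR-1224 (0.72), miR-338-3p (0.66), miR-34a (0.58) and miR-690 (0.57), with adjusted p between 0.13 and 0.60. MiR-720 read 1.57, 1.35 and 1.34 on day 8 and 1.76, 2.90 and 2.17 on day 14, and its sequence is held to be a tRNA fragment. MiR-1224 read 0.59, 0.85 and 0.81 on day 8 and 1.41, 1.44 and 1.55 on day 14. Both were apart between the days but spread widely in other groups, with an SE of 0.76 for miR-720 and 0.56 for miR-1224. MiR-34a, a target of p53, read -3.77, -3.33 and -3.12 on day 8 and -2.93, -2.89 and -2.65 on day 14. Its difference of 0.58 (SE 0.28) had an adjusted p of 0.26. MiR-690 was the only one of the 10 highest whose days overlapped.

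Of the 10 miRNAs that the study selected, miR-101b was called lower, against 5.83% of all tested miRNAs, and none was called higher. The study chose them on these arrays, against the syngeneic grafts, so their direction here is not independent evidence. They were 7 above 0 and 3 below, the latter being miR-101b, miR-101a and miR-148a. At an unadjusted p under 0.05 there were 1 higher, miR-27a, and 2 lower, against 8.74% and 12.6% of all tested miRNAs. MiR-27a read -1.09, -1.12 and -1.03 on day 8 and -0.32, -0.64 and -0.85 on day 14. Each day 14 array was above those of day 8, and the log2 fold change was 0.48 (SE 0.17, adjusted p = 0.13). MiR-15b (0.14, SE 0.25), miR-23a (0.09, SE 0.20) and miR-146a had days that overlapped.

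**Figure D5:**
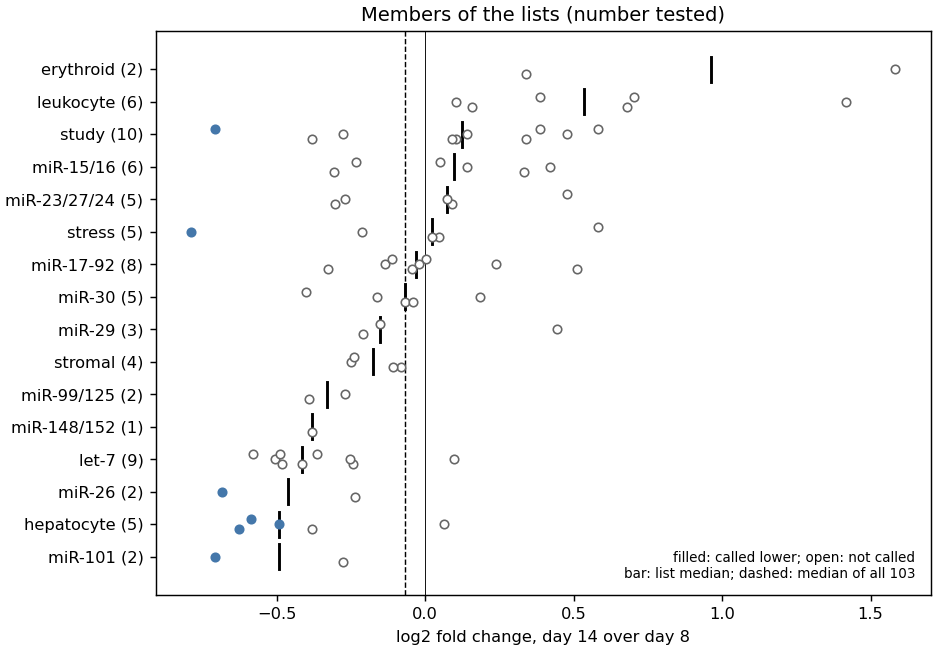
Log2 fold change of day 14 over day 8 (x axis) of the tested members of 16 lists of miRNAs (y axis, number tested in brackets). Points are miRNAs, filled where called lower, short bars are list medians, and the dashed line is the median of all 103 tested miRNAs (-0.07). Erythroid and leukocyte lists have the highest medians, 0.96 and 0.53, and the miR-101 and hepatocyte lists the lowest, both -0.49.

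The other lists lay closer to the median of all tested miRNAs. The endothelial, smooth muscle and stellate cell list had 4 tested members of 9 on the array. The differences lay between -0.25 for miR-199b and -0.08 for the endothelial miR-126-3p, whose sign turned under 3 other scalings. None of these was called, and none passed at an unadjusted p under 0.05. The miR-30 list had a median of -0.07 over 5 tested members, and the miR-17-92 list -0.03 over 8. The miR-15/16 list had 0.10 over 6 members, the miR-23/27/24 list 0.07 over 5, and the miR-29 list -0.15 over 3. No member of these 5 lists was called by limma. With unadjusted p under 0.05 there were 3 higher and 2 lower among them, against 8.74% and 12.6% of all tested miRNAs. The signs of the miR-30 and miR-17-92 members depended on the scaling, with 1 to 4 of 5 and 2 to 7 of 8 above 0. The list of injury- and hypoxia-related miRNAs held miR-365, which was called, and had a median of 0.02 over 5. Its member miR-21, the injury-induced miRNA that took 26.3% to 31.8% of the summed signal on day 8, took 28.2% to 33.6% on day 14. The log2 fold change of miR-21 was 0.05 (SE 0.22, adjusted p = 0.92), with days that overlapped. MiR-99a and the second member of its list had -0.39 and -0.27.

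Members of a seed family did not always lie on the same side of 0. Of 12 families with at least 2 matched and tested members, the miR-130a and miR-301a pair spanned the widest range, from -0.28 (SE 0.18) to 0.85 (SE 0.34). MiR-27b had -0.30 (SE 0.14) and miR-27a 0.48, although both carry the seed UCACAGU. MiR-27b read -2.11, -2.35 and -2.18 on day 8 and -2.52, -2.46 and -2.56 on day 14, the opposite order of that of miR-27a, and neither was called. Within the miR-29 family, whose members restrain collagen genes, miR-29b had 0.44 (SE 0.25) beside -0.21 for miR-29a and -0.15 for miR-29c. All 3 were above 0 when scaled by the median of the miRNAs detected on all arrays. MiR-30c (-0.40) and miR-30e (0.18) also differed in sign under the main scaling. None of these miR-29 and miR-30 members was called, and differences between members of a seed family were not tested. The copies of let-7f on chromosomes 13 and X give the same mature sequence, so the array does not tell them apart.

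Neighbors in the genome were compared by sign as a description. Of 27 pairs of tested miRNAs on the same strand with at most 10000 bases between them, 21 had the same sign. Signs were those of the log2 fold change itself, not relative to the median of all tested miRNAs. MiRNAs with several copies, such as let-7c and miR-29b, entered with the same value at each copy. Arms of the same hairpin also counted as pairs, so the pairs are not independent. Whether neighbors shared their sign more often than other pairs was not tested. The pairs include both miR-194 with miR-192 and miR-144 with miR-451, and also miR-99a with let-7c. The pairs that split included miR-29b with miR-29a and with miR-29c. As a description over the miRNAs, which are not independent, the log2 fold change had a Pearson r of 0.06 with the GC content of the mature sequence (n = 90) and of -0.09 with the mean level (n = 103).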

How the data were processed

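Single-color Agilent mouse miRNA arrays were used, 1 per graft. The authors deposited spot intensities as written by Agilent Feature Extraction 9.5.1.1, background-subtracted on the linear scale. No normalization between arrays is given in the sources used here, and the series table was not used. For each miRNA, spot intensities without outliers were averaged per probe and added up over its 1 to 4 probes. Detection needed a probe with a share of at least 0.5 of its spots well above background. Each array was scaled by the 75th percentile of the 52 miRNAs found on every array, a minimum of 0.0270 was set (log2 of -5.21), and log2 values were taken.

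The 5 group means were fitted over all 15 arrays with limma (version 3.58.1, R 4.3.3), so that all groups shared the estimate of the spread. The contrast was day 14 minus day 8, with Benjamini-Hochberg adjustment over the 103 tested miRNAs and a threshold of 0.05. Every adjusted p is from this fit unless another is named. The methods' t-test was run on the same values as an alternative. The text names the called miRNAs, the 10 highest and 10 lowest log2 fold changes, and members of 16 lists. Seed relatives such as miR-130a and miR-27b, the miRNAs with day 14 lowest or highest of all arrays, and miR-17* were named after their values were seen. The groups and lists were chosen with earlier results of these data known. Replicate numbers did not pair the arrays, since same-numbered deviations had correlations of -0.25, -0.17 and 0.15. The steps were tested on simulated data, and the other steps used Python 3.11.15 with pandas 2.3.3, numpy 2.4.6 and matplotlib 3.10.9.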

Additional observations from a re-analysis of the deposited data

How the results depend on the processing

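All 6 called miRNAs kept a log2 fold change below 0 under the 36 alternatives that could give one, except miR-122, which was at 0 under quantile normalization. Many of these alternatives changed only the test, the arrays of other groups or the set of tested miRNAs. Such alternatives leave the fold change as it is, so the sign could change only in the rest. MiR-26b was called in 19 of the 36 alternatives, miR-194 in 18, miR-365 in 17 of 35, miR-122 and miR-192 in 16 and miR-101b in 13. The number of calls was 0 with the 75th percentile over all miRNAs, with the mean of the log2 probe signals, with no filter on dim miRNAs (567 tested) and with the floor divided by 4. It was 2 with no scaling, 10 with only miRNAs of a mean signal at least 1.5 times that of all, and 19 with only the 6 arrays compared. The methods' t-test passed 34 unadjusted and 10 after Benjamini-Hochberg adjustment, with all 6 main calls among the former and 2 among the latter. The other settings called 5 to 9, and on the arrays of the same slide 5 were called (2 higher and 3 lower). With the replicate number as a block 0 were called, 20 at an unadjusted p under 0.05, though the numbers do not pair the arrays. Leaving out 1 array at a time gave 0 to 10 calls. It was 0 without replicate 1, 2 or 3 of day 8, replicate 1 or 3 of day 14, any replicate of day 100, or replicate 1 or 2 of allograft day 5, and 10 when replicate 2 of the syngeneic grafts was left out. The causes of these changes in the number of calls were not tested.

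Differences near 0 changed sign. With the median scaling they became 0.018 for miR-22, 0.020 for miR-29a, 0.078 for miR-29c and 0.15 for miR-126-3p, which was at 0.065 with no scaling and 0.038 with the percentile over the 6 arrays. The brightest probe gave -0.022 for miR-21 and -0.0054 for miR-16, the software's total signal -0.0014 for miR-21, and normexp on median intensities -0.013 for miR-155. Leaving out single arrays gave ranges across 0, from -0.050 to 0.17 for miR-21, -0.00090 to 0.12 for miR-16, -0.093 to 0.21 for miR-193 and -0.040 to 0.18 for miR-24. They were -0.031 to 0.15 for miR-23a, -0.011 to 0.23 for miR-146a and -0.13 to 0.49 for miR-155. The percentile over the 6 arrays and leaving out arrays of other groups were chosen after seeing the data.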
